A study of Mus musculus with 4 samples.

Results

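Semaphorins, plexins and neuropilins were followed across the cells of a sorted adult mouse retina. All features whose symbol starts with Sema or Plxn, together with Nrp1 and Nrp2, were taken when the deposited matrix held 10 or more unique molecular identifiers (UMIs, each standing for 1 captured RNA molecule) for them. This gave 31 of the 27999 genes in the table: 20 semaphorins, 8 plexins, 2 neuropilins and Plxna4os1, an antisense RNA of Plxna4. The features left out were Plxnb3, with 4 UMIs, and Plxna4os2 and Plxna4os3, with 0 UMIs each. Just inside the limit were Sema3c with 11 UMIs and Sema3d with 13 UMIs, while Sema6a had the most, 2630 UMIs.

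The cells came from C57BL/6 mice aged 3 months that carry a Brn3b::GFP reporter, which marks cells with green fluorescent protein through Brn3b (Pou4f2, a transcription factor of retinal ganglion cells). How the reporter was built is not given in the sources used here. Dissociated retinas were sorted for GFP and sequenced with a droplet method that tags the 3′ end of each RNA. There were 4 retinas in 1 group, with no other genotype or treatment, and no barcode is tied to a retina. The matrix is therefore 1 pooled sample, no test was possible, and every interval below is a 95% interval for counting error only.

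Semaphorins are guidance proteins that steer axons and dendrites, and plexins are the receptors that carry their signal into the cell. Class 3 semaphorins are secreted, and most of them need a neuropilin as co-receptor, whereas Sema3e can bind Plxnd1 directly. The other vertebrate classes are bound to the membrane and bind plexins without a neuropilin. In the developing retina, Sema5a and Sema5b acting through Plxna1 and Plxna3 hold neurites in the inner retina, and Sema6a with Plxna2 and Plxna4 sorts neurites into layers.

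Cells were classed by the UMIs of marker genes in each barcode. Of 2636 barcodes kept after quality filters, 918 met the retinal ganglion cell (RGC) gate (Slc17a6 and Rbpms) and 465 the horizontal cell gate (Lhx1). The amacrine gate took 240 barcodes, the bipolar gate 370, the Müller glia gate 221 and the microglia gate 144, and 278 fell in no class. The labels call all of the sorted cells RGC. Pou4f2, the reporter's gene, had a UMI in 59.2% of RGC barcodes. The summed RGC markers stood at 9782 counts per 1000000 UMIs (CPM) in RGC and at 379 to 1278 CPM in the other classes. Of the 240 amacrine barcodes, 93 had 3 or more UMIs of Onecut1 and Onecut2, and their summed horizontal markers were 8160 CPM, against 8729 CPM in horizontal barcodes. Amacrine levels are therefore given for the other 147 (Onecut-low), a division made after the data were seen. In those 147 the cone markers summed to 388 CPM, against 62.2 CPM in RGC, in bipolar barcodes to 676 CPM and in microglia to 200 CPM, and their part in the values of these classes was not tested. RNA of other cells was present in all groups: the microglia markers summed to 83.5 to 113 CPM outside microglia, where they reached 48196 CPM. Among the RGC, 136 barcodes also met the gate of another class.

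Median depth was 15843 UMIs per RGC barcode, 11252 per horizontal, 5565 per amacrine, 4284 per bipolar, 4650 per Müller and 3736 per microglial barcode. Levels are CPM of the UMIs summed over a class, and since a 3′ method gives 1 tag per molecule they are not divided by gene length. A ratio is called a difference here when it is 2-fold or more either way and rests on 50 or more UMIs over both groups. Where a group had 0 UMIs, the ratio is a bound against a floor of 3 UMIs over that group.

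**Figure D1:**
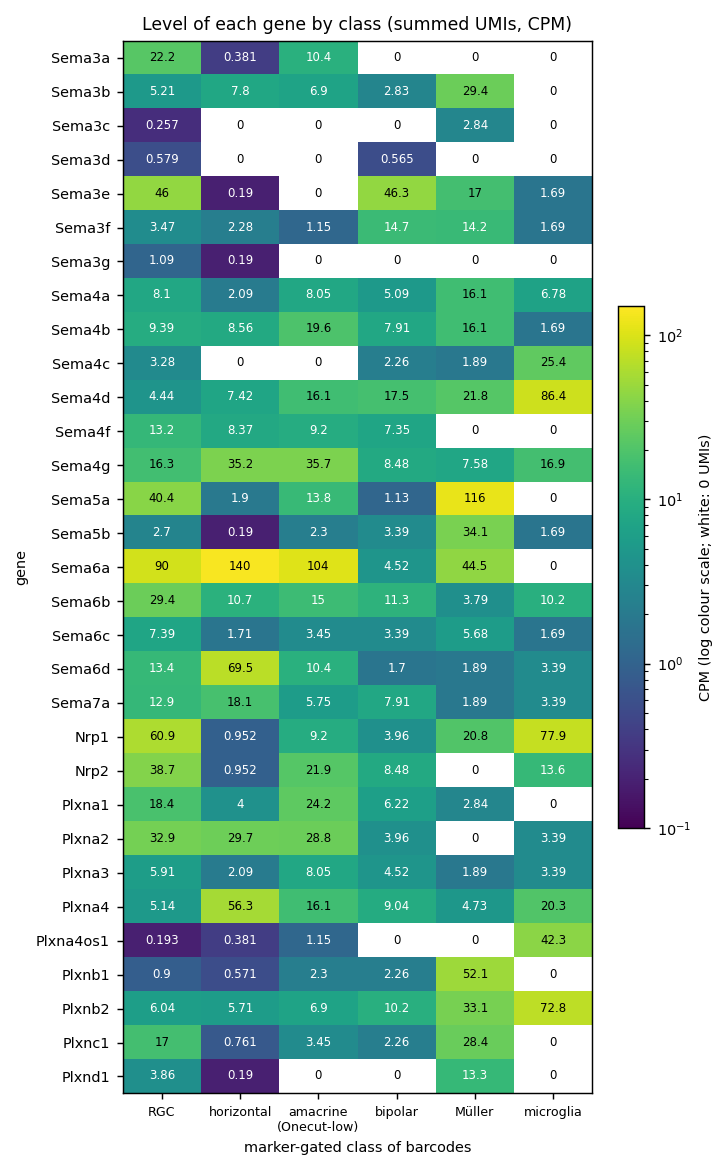
CPM of each of the 31 genes (rows) in 6 classes of barcodes (columns), on a logarithmic colour scale with the value printed in each field and white for 0 UMIs. Nrp1, Nrp2, Sema3a and Sema5a are bright in RGC and dark in horizontal barcodes, Sema6d and Plxna4 are brightest in horizontal barcodes, and Plxnb1 and Sema5b in Müller glia.

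Of the secreted semaphorins, Sema3a and Sema3e were abundant in RGC and nearly missing in horizontal barcodes. Sema3a, a repellent of axons that signals through Nrp1 and A-type plexins, was highest in RGC at 22.2 CPM (interval 19.9 to 24.6, 345 UMIs). It stood at 10.4 CPM in amacrine and 0.381 CPM in horizontal barcodes, with 2 UMIs in the latter, and had 0 UMIs in bipolar, Müller and microglial barcodes. Sema3e, the ligand of Plxnd1, was at similar levels in RGC (46.0 CPM, 716 UMIs) and bipolar barcodes (46.3 CPM, 82 UMIs), with a bipolar to RGC ratio of 1.01 (0.791 to 1.27). Müller glia had 17.0 CPM of Sema3e, microglia 1.69 CPM from 1 UMI, horizontal barcodes 0.190 CPM from 1 UMI, and the amacrine barcodes 0 UMIs. Sema3f, which prefers Nrp2, was low in RGC at 3.47 CPM and was 14.7 CPM in bipolar and 14.2 CPM in Müller barcodes. Its level was 2.28 CPM in horizontal, 1.15 CPM in amacrine and 1.69 CPM in microglial barcodes. Sema3b was highest in Müller glia at 29.4 CPM, against 7.80 CPM in horizontal, 6.90 CPM in amacrine, 5.21 CPM in RGC and 2.83 CPM in bipolar barcodes and 0 UMIs in microglia. Sema3c, Sema3d and Sema3g were near the limit of detection, with at most 2.84 CPM in any class.

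Of the class 4 semaphorins, Sema4d and Sema4c were highest in microglia, while Sema4g and Sema4f were higher in several neuron classes than in Müller glia. Sema4d, known as an immune semaphorin and ligand of Plxnb1, reached 86.4 CPM in microglia (64.3 to 114) and 4.44 CPM in RGC. The levels between were 21.8 CPM in Müller, 17.5 CPM in bipolar, 16.1 CPM in amacrine and 7.42 CPM in horizontal barcodes. Sema4c, a ligand of Plxnb2, was 25.4 CPM in microglia and at most 3.28 CPM in the other classes. Sema4g went the other way, with 35.7 CPM in amacrine and 35.2 CPM in horizontal barcodes, 16.3 CPM in RGC, 16.9 CPM in microglia, 8.48 CPM in bipolar and 7.58 CPM in Müller barcodes. Sema4a was 16.1 CPM in Müller, 8.10 CPM in RGC, 8.05 CPM in amacrine, 6.78 CPM in microglial, 5.09 CPM in bipolar and 2.09 CPM in horizontal barcodes. Sema4b ran from 19.6 CPM in amacrine and 16.1 CPM in Müller barcodes through 9.39 CPM in RGC, 8.56 CPM in horizontal and 7.91 CPM in bipolar barcodes to 1.69 CPM in microglia. Sema4f was 13.2 CPM in RGC, 9.20 CPM in amacrine, 8.37 CPM in horizontal and 7.35 CPM in bipolar barcodes, with 0 UMIs in Müller glia and microglia. The floor of 3 UMIs is 2.84 CPM in Müller glia and 5.08 CPM in microglia, so low levels there could be missed.

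The class 5 genes were led by Müller glia. Sema5a stood at 116 CPM in Müller barcodes (96.8 to 139, 123 UMIs) and 40.4 CPM in RGC (37.3 to 43.7, 628 UMIs). In amacrine barcodes it was 13.8 CPM, in horizontal 1.90 CPM, in bipolar 1.13 CPM and in microglia 0 UMIs. Sema5b was 34.1 CPM in Müller barcodes and at most 3.39 CPM elsewhere, with 2.70 CPM in RGC.

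Of the class 6 genes, transmembrane ligands of A-type plexins, Sema6a and Sema6d were higher in horizontal barcodes and Sema6b in RGC. Sema6a was the most abundant gene of the family in both, at 140 CPM in horizontal barcodes (130 to 150) and 90.0 CPM in RGC (85.3 to 94.8). It was 104 CPM in amacrine, 44.5 CPM in Müller and 4.52 CPM in bipolar barcodes and had 0 UMIs in microglia. Sema6d was 69.5 CPM in horizontal barcodes (62.5 to 77.0) and 13.4 CPM in RGC, a 5.19-fold difference (4.37 to 6.19). In the remaining classes Sema6d was 10.4 CPM in amacrine, 3.39 CPM in microglial, 1.89 CPM in Müller and 1.70 CPM in bipolar barcodes. Of the 465 horizontal barcodes, 224 had 0 UMIs of Sema6d, 146 had 1, 72 had 2 and 23 had 3 or more. Among the deeper RGC barcodes, 752 of 918 had 0 UMIs of it. Sema6b was highest in RGC at 29.4 CPM, followed by amacrine (14.96 CPM), bipolar (11.3 CPM), horizontal (10.7 CPM), microglial (10.2 CPM) and Müller barcodes (3.79 CPM). Sema6c was low throughout, with 7.39 CPM in RGC, 5.68 CPM in Müller, 3.45 CPM in amacrine, 3.39 CPM in bipolar, 1.71 CPM in horizontal and 1.69 CPM in microglial barcodes. Sema7a, a membrane-anchored ligand of Plxnc1, was 18.1 CPM in horizontal barcodes, 12.9 CPM in RGC, 7.91 CPM in bipolar, 5.75 CPM in amacrine, 3.39 CPM in microglial and 1.89 CPM in Müller barcodes.

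Among the neuron classes both neuropilins were highest in RGC. Nrp1, the co-receptor of Sema3a and of the growth factor VEGF, was 60.9 CPM in RGC (57.1 to 64.9, 947 UMIs) and 0.952 CPM in horizontal barcodes (5 UMIs). It was 9.20 CPM in amacrine, 3.96 CPM in bipolar and 20.8 CPM in Müller barcodes, and 77.9 CPM in microglia, whose level did not differ from that of RGC beyond counting error (ratio 1.28, 0.930 to 1.72). Nrp2, the co-receptor of Sema3f, was 38.7 CPM in RGC (35.7 to 41.9, 602 UMIs), 21.9 CPM in amacrine, 13.6 CPM in microglial, 8.48 CPM in bipolar and 0.952 CPM in horizontal barcodes. Müller glia had 0 UMIs of Nrp2.

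Of the A-type plexins, Plxna2 was the most abundant in RGC and Plxna4 in horizontal barcodes. Plxna2 stood at 32.9 CPM in RGC, a level close to those in horizontal (29.7 CPM) and amacrine barcodes (28.8 CPM). It was 3.96 CPM in bipolar and 3.39 CPM in microglial barcodes and had 0 UMIs in Müller glia. Plxna4 was 56.3 CPM in horizontal barcodes (50.1 to 63.1), against 20.3 CPM in microglial, 16.1 CPM in amacrine, 9.04 CPM in bipolar, 5.14 CPM in RGC and 4.73 CPM in Müller barcodes. Plxna1 was 24.2 CPM in amacrine barcodes, 18.4 CPM in RGC, 6.22 CPM in bipolar, 4.00 CPM in horizontal and 2.84 CPM in Müller barcodes, with 0 UMIs in microglia. Plxna3 stayed between 1.89 CPM in Müller and 8.05 CPM in amacrine barcodes, with 5.91 CPM in RGC, 4.52 CPM in bipolar, 3.39 CPM in microglial and 2.09 CPM in horizontal barcodes.

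Both B-type plexins were highest in glia. Plxnb1 was 52.1 CPM in Müller barcodes (39.2 to 67.8) and 0.900 CPM in RGC, with at most 2.30 CPM in the other classes. Plxnb2 was 72.8 CPM in microglia and 33.1 CPM in Müller glia, and between 5.71 and 10.2 CPM in the neuron classes. Plxnc1 was 28.4 CPM in Müller barcodes and 17.0 CPM in RGC, and 3.45 CPM in amacrine, 2.26 CPM in bipolar and 0.761 CPM in horizontal barcodes, with 0 UMIs in microglia. Plxnd1 was 13.3 CPM in Müller glia, 3.86 CPM in RGC and 0.190 CPM in horizontal barcodes, and had 0 UMIs in amacrine, bipolar and microglial barcodes.

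Plxna4os1 had 25 of its 44 UMIs in microglia (42.3 CPM), a class with 12 UMIs of Plxna4. The antisense gene lies within Plxna4 on the opposite strand, and whether the counting used strand is not given in the sources used here, so reads of these 2 genes may have been mixed.

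By highest level, 8 of the 31 genes led in RGC, 8 in Müller glia, 5 in microglia, 4 in horizontal, 4 in amacrine and 2 in bipolar barcodes. The same count over all genes is not given, so these numbers have no background to be read against. Of the 31 leads 12 were within counting error of the next class: 5 of the 8 in RGC, all 4 in amacrine, both in bipolar barcodes and 1 in microglia. Among them was Plxna2 in RGC over horizontal barcodes (ratio 1.11, 0.923 to 1.33). Some leads rest on few UMIs: Sema3c led in Müller glia with 7 UMIs over the 6 classes, and Sema3d in RGC with 10.

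Each class was then set against the RGC. Against horizontal barcodes, 16 of 25 genes with enough UMIs differed, 13 higher in RGC and 3 lower, where 29.8% of all 11550 genes tested differed (20.2% higher, 9.65% lower). Nrp1 was 64.0-fold higher in RGC (27.3 to 198), Nrp2 40.7-fold (17.3 to 126), Plxnc1 22.4-fold (8.64 to 82.7) and Sema5a 21.2-fold (11.5 to 44.5). The 3 lower genes were Plxna4 (ratio 0.0913), Sema6d (0.193) and Sema4g (0.462). The median log2 ratio was 1.46 over the 25 genes and 0.13 over all genes.

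Against the Onecut-low amacrine barcodes 12 of 25 genes differed, 8 higher and 4 lower, beside 21.1% of all genes (12.2% higher, 8.9% lower). For the whole amacrine gate the numbers were 13 of 25, 9 and 4, and 22.3% (13.8% and 8.48%). Sema6d was among the lower genes for the whole gate (ratio 0.313) but was 1.29 against the Onecut-low barcodes. Sema3e was at least 13.3-fold and Nrp1 6.61-fold higher (3.34 to 15.4) in RGC than in the Onecut-low barcodes. Sema4d (ratio 0.275) and Plxna4 (0.319) were lower.

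Against bipolar barcodes, 14 of 25 genes differed, 12 higher and 2 lower, beside 37.9% of all genes (24.8% higher, 13.1% lower). Sema5a was 35.7-fold (9.85 to 296) and Sema6a 19.9-fold higher (10.1 to 46.2) in RGC, and Sema3a at least 13.1-fold. Sema3f (ratio 0.236) and Sema4d (0.253) were the lower ones.

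Against Müller glia, 21 of 27 genes differed, 13 higher and 8 lower, beside 45% of all genes (28.6% higher, 16.4% lower). The lower ones included Plxnb1, 57.9-fold higher in Müller glia (31.7 to 113), Sema5b, 12.6-fold higher there (7.86 to 20.2), and Sema5a, with an RGC ratio of 0.347. Nrp2 was at least 13.6-fold and Plxna2 at least 11.6-fold higher in RGC.

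Against microglia, 19 of 25 genes differed, 15 higher and 4 lower, beside 56.2% of all genes (41.6% higher, 14.6% lower). Sema4d was 19.5-fold (13.3 to 28.4) and Plxnb2 12.1-fold (8.20 to 17.5) higher in microglia, and Sema6a at least 17.7-fold higher in RGC.

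These class comparisons depend on the quality filter. With a mitochondrial maximum of 5% in place of 10%, 38 horizontal, 23 bipolar and 31 Müller barcodes remained. The number of differing genes fell to 8 against bipolar and 9 against Müller barcodes. Fewer barcodes leave fewer genes with the 50 UMIs that a call needs, and the share of all genes at this setting is not given. Nrp1 was then 9.65-fold higher in RGC than in horizontal barcodes. How many horizontal UMIs of Nrp1 remain in the 38 barcodes is not given, so this ratio may be a bound against the floor. The RGC ratio of Sema5a against Müller glia was 0.646, no longer past 2-fold, with 31 Müller barcodes left.

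Bipolar cells were divided after the data were seen by Prkca, the marker of rod bipolar cells, at 5 or more UMIs. All 82 bipolar UMIs of Sema3e lay in the 299 Prkca-high barcodes (57.4 CPM, in 74 barcodes), and the 71 Prkca-low barcodes had 0, which makes the level at least 6.55-fold higher in the former. In the Prkca-high barcodes 67 had 1 UMI of Sema3e, 6 had 2 and 1 had 3, so the UMIs were spread over many barcodes. Sema3f had 20 UMIs in Prkca-low barcodes (58.5 CPM) and 6 in Prkca-high (4.20 CPM). Nrp2, its co-receptor, had 15 UMIs in Prkca-low barcodes (43.9 CPM) and 0 in Prkca-high, although 4 of the 15 came from 1 barcode. Plxna4 had 11 UMIs in Prkca-low (32.2 CPM) and 5 in Prkca-high barcodes (3.50 CPM). Sema3e alone reached 50 UMIs in this division and differed, where 11.5% of all genes with 50 or more UMIs did (5.77% higher in Prkca-high barcodes, 5.71% lower). Median depth was alike, 4283 UMIs in Prkca-high and 4284 in Prkca-low barcodes.

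**Figure D2:**
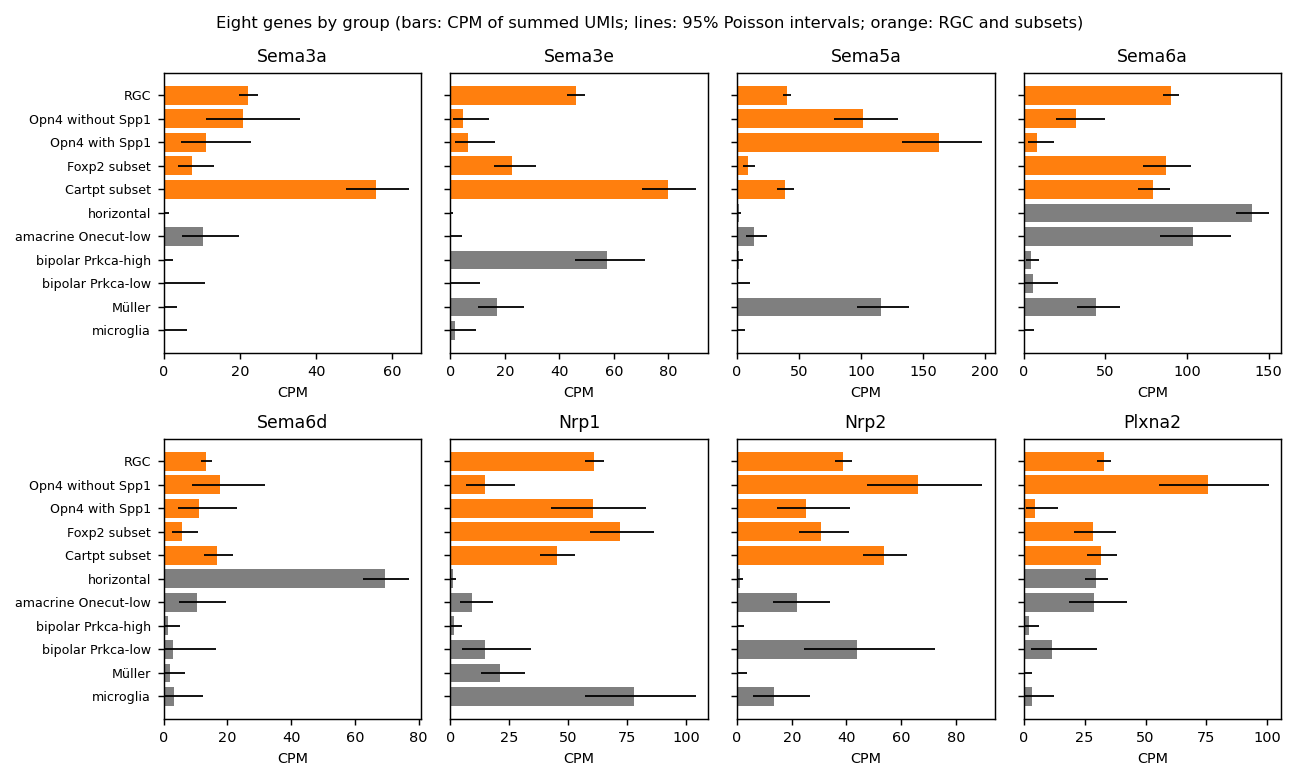
CPM of 8 genes (panels, horizontal axes from 0) in RGC, 4 RGC subsets or parts of them (orange) and the other classes (grey), with 95% Poisson intervals as lines. Sema5a is longest in the Opn4 barcodes with Spp1, Sema3a and Sema3e in the Cartpt subset among RGC, Plxna2 in the Opn4 barcodes without Spp1, and Sema6d in horizontal barcodes.

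Within the RGC several genes of the family varied from cell to cell more than other genes of their level. Each barcode was thinned to 12000 UMIs, a depth reached by 729 of 918 RGC and 162 of 465 horizontal barcodes. At that depth Sema6a had a UMI in 54.6% of RGC and 74.1% of horizontal barcodes, Nrp1 in 44.7% and 1.85%, Sema3e in 38.8% and 0%, and Nrp2 in 31.8% and 0.617%. The share was 29.9% of RGC and 31.5% of horizontal barcodes for Plxna2, 29.1% and 9.26% for Sema6b, 26.9% and 1.23% for Sema5a, and 18.1% and 0.617% for Sema3a. The variance divided by the mean (Fano factor) of thinned UMIs among RGC was 2.02 for Sema5a, 1.67 for Sema6a, 1.64 for Sema3a, 1.37 for Nrp2 and 1.36 for Nrp1. Genes of similar mean, within 25%, had median values of 1.03 to 1.07 for these 5. Sema5a stood at the 98.5th percentile of the genes of its mean and Sema3a at the 97.7th. Sema6b (1.05) and Plxna1 (0.983) were spread like other genes of their means.

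**Figure D3:**
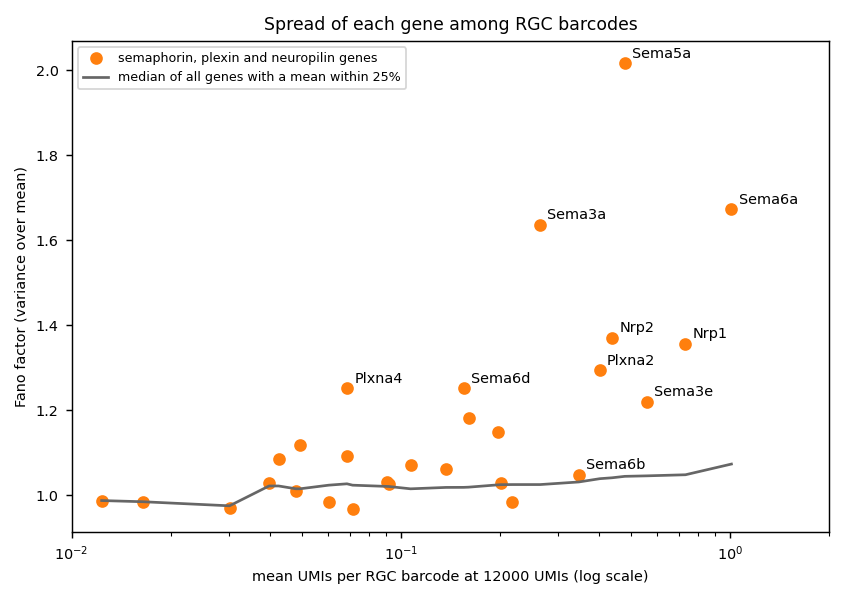
Fano factor (variance over mean) of UMIs among 729 RGC barcodes thinned to 12000 UMIs against the mean on a log axis, for genes of the family (orange points) and as the median of all genes of similar mean (grey line). Sema5a at 2.02, Sema6a at 1.67 and Sema3a at 1.64 lie farthest above the line.

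The RGC subsets were defined by marker UMIs: 63 barcodes with 3 or more of Opn4 (melanopsin, the photopigment of intrinsically photosensitive RGC), 32 with 3 or more of Spp1 (osteopontin, a marker of alpha RGC), 96 with 2 or more of Foxp2 and 164 with 20 or more of Cartpt (a marker of ON-OFF direction-selective RGC). Since the gates count UMIs, deep barcodes pass more often, and the median was 26504 UMIs in the Spp1 subset. The Opn4 and Spp1 subsets shared 24 barcodes, 38.1% of the former and 75.0% of the latter. Eomes, a transcription factor of melanopsin cells, was in 92.1% of Opn4 barcodes, whereas Kcng4, another alpha RGC marker, was in 37.5% of the Spp1 and 17.5% of the Opn4 barcodes. Il1rapl2, also listed as an alpha RGC marker, had 0 UMIs in the Spp1 and 2 in the Opn4 barcodes, from 6 in all RGC.

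In the Opn4 subset Sema5a was high and Sema6a and Sema3e were low. Sema5a was 133 CPM (113 to 154) against 32.3 CPM in the other RGC, 4.11-fold higher (3.42 to 4.92). Of the 63 Opn4 barcodes, 28 had 3 or more UMIs of Sema5a and 18 had 0, while 604 of the 855 other RGC had 0. Sema6a was 19.98 CPM against 96.1 CPM (ratio 0.208, 0.134 to 0.308), and Sema3e 5.595 CPM against 49.6 CPM (ratio 0.113, 0.0452 to 0.234). Plxnc1 was higher, at 33.6 CPM against 15.6 CPM (2.15-fold, 1.51 to 3.00). Sema3b and Sema4c were also past 2-fold, from 3 UMIs and 1 UMI in the subset, with intervals that include 1. In all, 6 of 25 genes differed, 2 higher and 4 lower, beside 10.4% of all 11006 genes tested (3.36% higher, 7.08% lower). Thinning to 3000 UMIs moved the Sema3e ratio to 0.234 and the Plxnc1 ratio to 5.87.

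The Spp1 subset shares 75.0% of its barcodes with the Opn4 subset, and in it too Sema5a was high and Sema3e low. Sema5a was 139 CPM, 4.02-fold above the other RGC (3.27 to 4.91), Sema3e 18.2 CPM (ratio 0.381, 0.217 to 0.624) and Plxna2 10.2 CPM (ratio 0.299, 0.136 to 0.573). With Sema4c, at 1 UMI, 4 of 25 genes differed, 1 higher and 3 lower, beside 9.92% of all genes (3.03% higher, 6.9% lower). Sema6a, at 46.6 CPM in the subset, and Plxnc1 were not past 2-fold here. In the 8 Spp1 barcodes outside the Opn4 subset Sema3e was 48.3 CPM (24.9 to 84.3, 12 UMIs), against 6.34 CPM in the 24 shared ones. Of these 8, 2 also met the Cartpt gate, and their part in this level was not tested. By the mean of each barcode's CPM 7 genes differed, with the top barcode of each gene left out 8, and the ratio of Plxna2 was 0.874 after thinning to 3000 UMIs. The shares of all genes at these settings are not given, and the 9.92% is not a background for them.

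Dividing the Opn4 subset by Spp1, after the data were seen, gave different levels of Plxna2 and Nrp1. Plxna2 was 75.8 CPM in the 39 Opn4 barcodes without Spp1 (47 UMIs, in 24 barcodes) and 4.76 CPM in the 24 with Spp1 (3 UMIs), a ratio of 15.9 (5.13 to 80.0). None of the 24 had more than 1 UMI of Plxna2, although their median depth was 25648 UMIs against 15275 in those without Spp1. Nrp1 went the other way, with 14.5 CPM without and 60.2 CPM with Spp1 (9 and 38 UMIs, ratio 0.241, 0.102 to 0.507), just under the 50 UMIs that a call needs. Nrp2 was 66.1 CPM without and 25.4 CPM with Spp1 (ratio 2.61, 1.43 to 4.97), but 10 of the 41 UMIs in the former came from 1 barcode, and the share of barcodes with Nrp2 was alike, 32.3% and 33.3% at 12000 UMIs. Sema5a was high in both, at 102 CPM without and 163 CPM with Spp1, and Sema3e low in both, at 4.84 and 6.34 CPM. Sema6a was 32.2 CPM without Spp1 and 7.93 CPM with it (20 and 5 UMIs). In the 8 Spp1 barcodes outside the Opn4 subset, of which 2 are also in the Cartpt subset, Sema6a was 145 CPM. Of the 8, 6 had 3 or more UMIs of Sema6a. Of the 3 genes with enough UMIs in this division 2 differed, Plxna2 and Nrp2, beside 5.64% of all genes (2.57% higher without Spp1, 3.07% lower).

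In the Cartpt subset 3 of the 7 secreted semaphorins, Sema3a, Sema3e and Sema3f, were higher. Sema3a was 55.7 CPM (47.9 to 64.4) against 13.2 CPM in the other RGC, 4.22-fold higher (3.40 to 5.25), and the subset held 183 of the 345 RGC UMIs of this gene. Of its 164 barcodes, 58 had 1 UMI of Sema3a, 18 had 2, 24 had 3 or more and 64 had 0, while 624 of the other 754 RGC had 0. Sema3e was 79.8 CPM against 37.0 CPM (2.16-fold, 1.84 to 2.52), and Sema3f 8.22 CPM with 27 UMIs, the same number as in the other RGC together (3.74-fold, 2.11 to 6.62). Plxna4 was 0.913 CPM, from 3 UMIs, against 6.27 CPM (ratio 0.146, 0.0294 to 0.442). These were 4 of 25 genes, 3 higher and 1 lower, beside 3.58% of all genes (0.772% higher, 2.81% lower). Nrp2 was 53.6 CPM, less than 2-fold above the other RGC. The 2-fold call of Sema3e did not hold against the 592 RGC in none of the subsets (1.82-fold) or after thinning to 3000 UMIs (1.78-fold).

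Parts of the Cartpt subset differed in Sema3a. In the 15 Cartpt barcodes with a UMI of Col25a1, Sema3a was 15.9 CPM (6.39 to 32.7), in the 26 with Mmp17 41.4 CPM (26.5 to 61.6) and in the 124 with neither 66.5 CPM (56.4 to 78.0). Sema3e was 95.3, 74.2 and 78.3 CPM in the same order, with intervals that overlap. Nrp1 was 13.6 CPM in the Col25a1 and 72.5 CPM in the Mmp17 barcodes, from 6 and 42 UMIs. This division was also made after the data were seen, and 1 UMI of these markers is easily missed. A barcode with both markers counts in both parts, and the share of all genes that differ in this division is not given.

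In the Foxp2 subset the genes that differed were all lower. They were 10 of 25, beside 6.01% of all genes (5% lower, 1.02% higher). After thinning to 3000 UMIs 2 genes differed, and the ratios of Plxna3 and Sema4d were 1.01 and 1.22. Sema5a was 8.82 CPM against 44.0 CPM in the other RGC (ratio 0.201, 0.109 to 0.339), Sema3a 7.56 CPM against 23.8 CPM (0.317, 0.162 to 0.561) and Sema3e 22.7 CPM against 48.7 CPM (0.466, 0.323 to 0.651). Sema6d (ratio 0.398), Sema4a (0.440), Sema7a (0.460), Plxna1 (0.487) and Plxnd1 (0.149, from 1 UMI) were lower too. Plxna3 and Sema4d had ratios of 0.3998 from 4 and 3 UMIs, with intervals that include 1. Nrp1, at 71.8 CPM, and Sema6a, at 86.9 CPM, were near their levels in all RGC. Against the RGC in none of the subsets, 5 genes remained past 2-fold, and Sema3a was at 0.537, Sema3e at 0.518 and Plxna1 at 0.512. The shares of all genes after thinning and against this reference are not given.

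**Figure D4:**
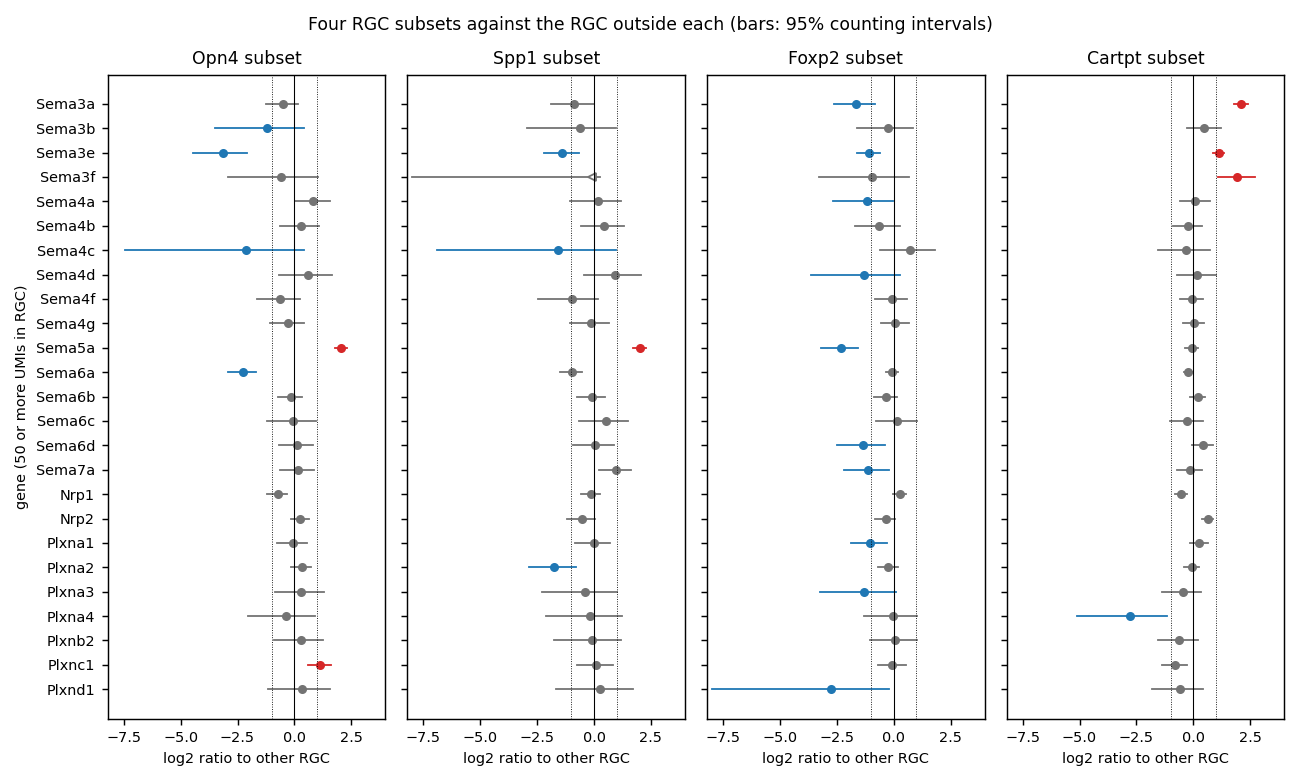
Log2 ratio of the level in each of 4 RGC subsets to that in the RGC outside it, for 25 genes with 50 or more UMIs, with 95% counting intervals (cut off at the left edge). Red points are 2-fold or more higher, blue lower, grey neither, dotted lines mark 2-fold, and the open triangle is an upper limit from 0 UMIs. Sema5a is red in the Opn4 and Spp1 and blue in the Foxp2 panel, and Sema3a, Sema3e and Sema3f are red in the Cartpt panel.

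The promoters of 3 genes with strong class or subset differences are shown, from 250 bases before to 50 bases after the RefSeq start site in GRCm38.p6, all on the plus strand and with matches to short motifs in capitals. Sema3e lies at chr5:14025026-14025325, Sema5a at chr15:32244563-32244862 and Sema6d at chr2:124089719-124090018.
Sema3e: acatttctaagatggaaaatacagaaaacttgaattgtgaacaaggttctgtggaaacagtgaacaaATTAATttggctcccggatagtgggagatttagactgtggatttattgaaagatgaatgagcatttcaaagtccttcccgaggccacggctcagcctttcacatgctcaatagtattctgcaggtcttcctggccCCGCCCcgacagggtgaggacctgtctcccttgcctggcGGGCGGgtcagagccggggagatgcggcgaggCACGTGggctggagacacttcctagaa
Sema5a: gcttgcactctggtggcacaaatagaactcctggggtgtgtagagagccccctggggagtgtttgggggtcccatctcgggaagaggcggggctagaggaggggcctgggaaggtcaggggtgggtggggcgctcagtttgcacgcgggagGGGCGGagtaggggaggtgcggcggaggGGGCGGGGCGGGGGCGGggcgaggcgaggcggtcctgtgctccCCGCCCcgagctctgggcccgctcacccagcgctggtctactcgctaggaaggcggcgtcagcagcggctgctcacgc
Sema6d: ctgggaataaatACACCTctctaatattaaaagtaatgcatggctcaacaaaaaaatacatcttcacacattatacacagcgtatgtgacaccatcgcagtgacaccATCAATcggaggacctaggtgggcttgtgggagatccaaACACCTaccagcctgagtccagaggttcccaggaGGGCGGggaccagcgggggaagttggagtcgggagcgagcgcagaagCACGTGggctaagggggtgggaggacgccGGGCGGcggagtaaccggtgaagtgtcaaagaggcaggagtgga

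Both strands were searched for 7 motifs: AGGTGT (T-box), ATTAAT (POU4F), ATCAAT and ATCGAT (Onecut), TAAACA (forkhead), CACGTG (E-box) and GGGCGG (GC box). Sema3e held ATTAAT 183 bases before its start site, a match found in 4.75% of 32851 mouse promoters of the same length, with 2 GC boxes and CACGTG. Sema6d held ATCAAT 143 bases before the start, a match in 7.54% of promoters, and 2 T-box, 2 GC box and 1 E-box match. A second RefSeq start of Sema6d, with its window at chr2:124653331-124653630, held 0 matches. Sema5a held 5 GC boxes, 2 of which overlap by 1 base in the run of capitals, and a GC box was in 35.7% of promoters. A match describes the letters in this window, and the counts of RNA do not show which start site was used.

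Partners were set side by side in the same RGC barcodes at 12000 UMIs, for 25 known pairs of ligand, co-receptor and plexin. In 23 pairs the share of barcodes with both lay within counting error of the product of the 2 shares. For rarely detected pairs a shortfall could not have shown. Sema4d and Plxnb1, for example, had a product of 0.0576% and were together in 0 of 729 barcodes. With 25 intervals at 95%, some may also fall outside through counting alone, so the next 2 pairs are descriptions only. Sema3a and Nrp1 were together in 6.04% of barcodes (4.42% to 8.02%), below the product of 8.10%. Sema5a and Plxna1 were together in 7.54% (5.73% to 9.71%), above the product of 5.38%. Sema3e and its receptor Plxnd1 were together in 1.92%, with a product of 1.76%, and Nrp1 and Nrp2 in 15.2%, with a product of 14.2%.

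Other genes of semaphorin signalling were counted from a list of 44, among them the collapsin response mediators (Crmp1 and the Dpysl genes), small GTPases and their regulators, and adhesion molecules that act as co-receptors. Against horizontal barcodes, 18 of 39 with enough UMIs differed, 15 higher in RGC and 3 lower, beside 29.8% of all genes (20.2% higher, 9.65% lower). Chl1, an adhesion molecule that binds neuropilin, was 28.8-fold higher in RGC (11.1 to 106), Alcam, an adhesion molecule of RGC axons, 27.8-fold (15.4 to 55.8), and Dpysl3 25.6-fold (14.9 to 48.2). Lowest were Myo6, a myosin motor, 19.9-fold lower in RGC, Rhoa (ratio 0.437) and Vegfa (0.493). Of the list, 15 of 39 differed against Onecut-low amacrine barcodes (13 higher in RGC and 2 lower, beside 21.1% of all genes) and 19 of 39 against bipolar barcodes (17 and 2, beside 37.9%). Against Müller glia 28 of 39 differed (20 and 8, beside 45%) and against microglia 32 of 38 (30 and 2, beside 56.2%).

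Between RGC subsets, the same list was counted beside the shares of all genes already given. In the Opn4 subset 2 of 38 differed (10.4% of all genes), Chl1 higher (2.95-fold, 2.24 to 3.85) and Alcam lower (ratio 0.180, 0.0979 to 0.303). In the Spp1 subset 4 of 38 did (9.92% of all genes), Rras (2.13-fold, from 12 UMIs) and Chl1 (2.09-fold) higher and Alcam (0.378) and Dpysl4 (0.397) lower. In the Foxp2 subset 2 of 38 were lower (6.01% of all genes differed), Chl1 (0.293, 0.145 to 0.531) and Farp1, a guanine nucleotide exchange factor (0.409, from 6 UMIs). Chl1 was the only 1 of 38 in the Cartpt subset (0.233, 0.140 to 0.366), where 3.58% of all genes differed. Chl1 was thus past 2-fold in all 4 subsets, higher in the Opn4 and Spp1 and lower in the Foxp2 and Cartpt subsets. These 4 ratios are not independent: the Opn4 and Spp1 subsets share 24 barcodes, and each reference holds barcodes of the other subsets.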

How the data were processed

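The deposited matrix holds counts, whole UMI numbers that the authors had not normalized. The submitters' processing notes name Cell Ranger, Seurat 2.2 and the build mm10. The way barcodes were called as cells is not given in the sources used here. Barcodes with 500 or more genes and under 10% mitochondrial UMIs were kept (2699 of 3237), and 63 doublets called by Scrublet (scanpy 1.11.5, seed 0) were removed. Barcodes held 3198 to 53709 UMIs.

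Non-RGC gates summed marker UMIs: amacrine 3 (Tfap2b, Slc6a9, Gad1, Gad2), bipolar 5 (Trpm1, Pcp2, Grm6, Vsx1, Cabp5, Scgn and 1 marker not reported here), Müller 8 (Rlbp1, Slc1a3, Aqp4), microglia 10 (C1qa, C1qb, C1qc, Ctss, Cx3cr1, Tyrobp). RGC barcodes had 1 or more UMIs of Slc17a6, 3 or more with Rbpms, and at most 1 of Lhx1, and horizontal barcodes 2 or more of Lhx1. UMIs were summed per group. Intervals are exact Poisson, Clopper-Pearson or conditional. The ratio routine was tested on simulated data.

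The genes, gene lists and gates were chosen with earlier results of these data known. Every gene of the family is named, genes with 100 or more UMIs and a 2-fold difference with their level in each class, and of the signalling list the 3 highest and 3 lowest against horizontal barcodes and those past 2-fold in a subset. Some genes with fewer UMIs are given with levels as well. Computation used scipy 1.17.1 under Python 3.11.15, and plots matplotlib 3.10.9. Promoters are from RefSeq, with an entry for 25 of the 31 genes, and positions of genes from GENCODE.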

Additional observations from a re-analysis of the deposited data

How the results depend on the processing

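No paired analysis was possible because the barcodes are not tied to a retina. With a mitochondrial maximum of 5%, 8 genes of the family differed between RGC and amacrine, 8 between RGC and bipolar and 9 between RGC and Müller barcodes. The ratio of Sema6c against bipolar barcodes was then 0.433, but with 23 bipolar barcodes left it rests on few bipolar UMIs. After thinning to 3000 UMIs the numbers were 8 for amacrine, 9 for bipolar, 8 for Müller and 9 for microglial barcodes and 2 each for the Foxp2 and Cartpt subsets, with Plxna3 at 1.01 and Sema4d at 1.22 in the Foxp2 subset; fewer UMIs leave fewer genes with 50. At 3-fold, 8 genes differed for amacrine barcodes, 2 for the Spp1 and 3 for the Foxp2 subset. With the RGC in no subset as reference, 5 differed for the Foxp2 and 2 for the Cartpt subset. In the Spp1 subset 7 differed by the mean of each barcode's CPM and 8 with the top barcode of each gene left out, and the cause was not tested. Here and above, counts at other settings stand without the share of all genes, so they show only how the calls moved. With Onecut-low barcodes, chosen after seeing the data, Sema6d was 1.29 in RGC against amacrine barcodes. Of 687 ratios recomputed from 98 called ones, 617 stayed within the main interval, 66 moved beyond it and 4 changed direction. The settings were unlike: all 98 stayed by the mean of each barcode's CPM and also with no mitochondrial maximum. At a mitochondrial maximum of 5%, 56 stayed, 32 moved and 1 changed direction. After thinning to 3000 UMIs 71 stayed, 24 moved and 2 changed direction, and with Onecut-low barcodes 7, 4 and 1. A further 11 were bounds with no direction. Depth limits the small classes most: the floor of 3 UMIs is 5.08 CPM in microglia, 3.45 CPM in Onecut-low amacrine barcodes and 2.84 CPM in Müller glia, against 0.193 CPM in RGC.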
